A study of Rattus norvegicus with 4 samples.

Results

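Fatty acid oxidation and peroxisome genes were described in whole rat kidney across 4 arrays. The members were chosen by name: 23 symbols of fatty acid oxidation, its regulators and related carriers, and every gene whose symbol begins with Pex and a digit. Of the 23 symbols, 22 had a probe set of their own; Acaa1a, the peroxisomal thiolase, did not. With 10 Pex genes this gave 32 members on 36 probe sets, out of 10411 named genes. Another 4 probe sets carried a member's symbol together with another gene's and were not used.

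The groups were male rats of 9 weeks: SHR exposed to nicotine before birth, SHR given saline before birth, and Brown Norway (BN) rats with the same 2 treatments. SHR is the spontaneously hypertensive inbred strain, and BN is an inbred strain with normal blood pressure. Each array carried 1 pool of equal RNA amounts from 13 animals (SHR nicotine) or 12 animals (each other group), so the spread between animals was not measured and no group has a replicate. No label used here states the nicotine dose, its route or its days.

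Mitochondria shorten fatty acids in a cycle of dehydrogenation, hydration, a second dehydrogenation and thiolysis, after carnitine has carried the acyl chain across the inner membrane. Peroxisomes run a similar cycle on very long, branched or dicarboxylic chains, and their matrix enzymes are brought in by proteins called peroxins. The proximal tubule of the kidney draws much of its energy from this route, and the nuclear receptor PPAR-alpha induces many of its genes.

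Most of these genes read nearly alike on all 4 arrays. Among the 28 members measured on at least 1 array, the median ratio of the highest to the lowest array was 1.14, against 1.23 over all 5697 measured genes, and 18 of the 28 (64.3%) stayed within 1.2-fold, against 41.2% of all genes. Members were bright, however: when tested genes were divided by signal into 4 equal groups, 18 of the 26 tested members fell in the brightest, whose median ratio was 1.17, against 1.32 in the dimmest. A gene counted as measured where its signal reached 89.0, which is 2 times a floor of 44.5 set at the 40th percentile of all signals. Ppara, which encodes PPAR-alpha, read between 3.0 and 5.4, Pex5l between 2.4 and 3.1, Pex6 between 35.3 and 50.8, and Pex10 between 31.0 and 66.6. A change in these 4 was not detectable here. Pex2 and Pex19 passed the limit on 1 array each and entered no test of strain. Signals carry no absolute unit, and a probe set's brightness depends on its own sequence, so only ratios within a gene were compared.

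Promoter sequences are shown for the 3 members called between strains and for Hadha, because its start lies beside that of Hadhb and the pair encodes the subunits of 1 enzyme. The windows run from 250 bases before to 50 bases after the gene's start and come from RefSeq on GRCr8, an assembly of a BN rat; 26 of the 32 members had one. Capitals mark AGGTCA, the hexamer that PPAR and related receptors bind as a repeat, and GGGCGG, the GC box, on either strand (read on the other strand they appear as TGACCT and CCGCCC). Ehhadh lies at chr11:92746159-92746458 (plus strand), Acadvl at chr10:55236656-55236955 (minus strand), Hadh at chr2:222504397-222504696 (minus strand) and Hadha at chr6:31907551-31907850 (plus strand).
Ehhadh: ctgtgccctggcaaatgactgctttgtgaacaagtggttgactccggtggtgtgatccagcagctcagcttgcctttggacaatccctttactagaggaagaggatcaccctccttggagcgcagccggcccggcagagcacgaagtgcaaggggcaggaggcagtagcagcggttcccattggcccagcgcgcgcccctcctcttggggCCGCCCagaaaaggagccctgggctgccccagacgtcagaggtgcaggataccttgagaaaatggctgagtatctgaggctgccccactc
Acadvl: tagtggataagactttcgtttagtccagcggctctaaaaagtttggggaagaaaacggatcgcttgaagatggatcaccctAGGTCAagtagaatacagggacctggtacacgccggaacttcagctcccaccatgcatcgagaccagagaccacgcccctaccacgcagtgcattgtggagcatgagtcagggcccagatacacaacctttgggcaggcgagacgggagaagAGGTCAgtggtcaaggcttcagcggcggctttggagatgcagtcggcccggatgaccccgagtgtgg
Hadh: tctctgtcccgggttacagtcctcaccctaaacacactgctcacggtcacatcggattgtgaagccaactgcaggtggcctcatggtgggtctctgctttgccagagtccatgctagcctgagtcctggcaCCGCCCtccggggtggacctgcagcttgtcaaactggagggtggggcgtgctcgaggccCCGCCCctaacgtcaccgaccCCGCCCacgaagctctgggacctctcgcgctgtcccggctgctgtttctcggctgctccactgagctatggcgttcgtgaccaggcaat
Hadha: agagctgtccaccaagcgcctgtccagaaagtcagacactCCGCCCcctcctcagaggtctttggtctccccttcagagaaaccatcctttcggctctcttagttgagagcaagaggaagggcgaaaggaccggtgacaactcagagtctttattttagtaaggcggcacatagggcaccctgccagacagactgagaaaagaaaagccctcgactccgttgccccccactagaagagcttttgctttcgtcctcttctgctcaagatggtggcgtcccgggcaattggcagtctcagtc

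The window of Hadhb, chr6:31907451-31907750 on the minus strand, shares 200 bases with that of Hadha. The full DR1 repeat, AGGTCA and AGGTCA with 1 base between, occurred in 0 of the 26 member windows and in 0.0538% of 33469 promoter windows of all genes. Only exact copies were searched, and at so low a share 0 of 26 says little about the members. The single hexamer AGGTCA, which the repeat contains, occurred in 3 of 26 (Acadvl, Eci1 and Hadhb, 11.5%) against 16.2% of all windows. Acadvl held 2 copies. The later copy is followed, after 1 base, by TGGTCA, which differs from AGGTCA in its first letter. Such near matches to the repeat were not counted in any window. GC boxes were in 18 of 26 (69.2%) against 33.1%, with 3 in Hadh, 1 in Ehhadh, 1 in Hadha and 0 in Acadvl. The GC box of Hadha lies in the 200 shared bases, so it counts for Hadhb as well. The windows shown hold 54.3% to 62.7% G and C, against a median of 51.7% over all windows. The part of this in the GC box counts was not tested. These are matches of letters only, and the windows leave out more distant elements.

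**Figure D1:**
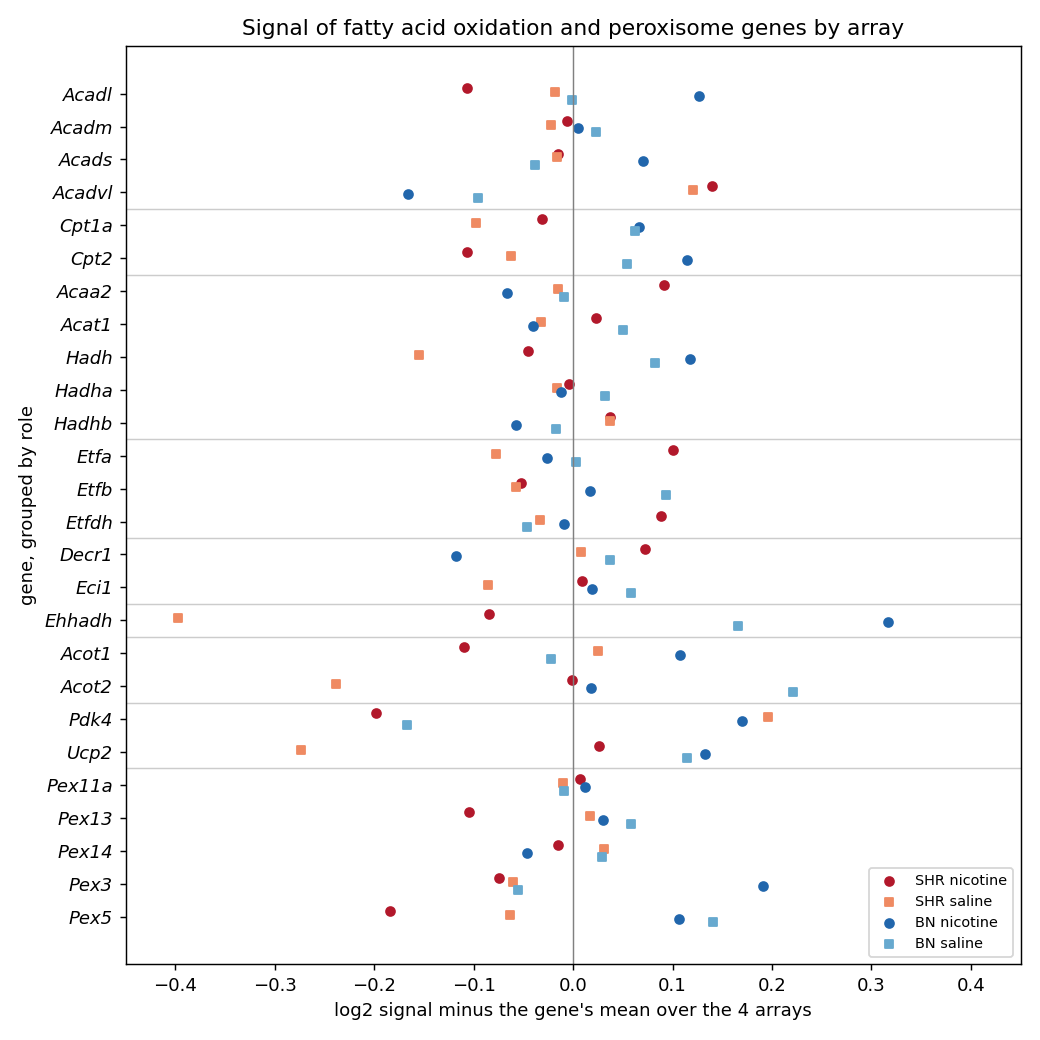
Signal of the 26 members tested for strain, as log2 signal minus the gene's own mean over the 4 arrays (x axis), 1 row per gene grouped by role, 1 point per array. Most rows are narrow; Ehhadh is the widest, with both SHR points left of both BN points, and Pdk4 crosses over between treatments.

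The acyl-CoA dehydrogenases carry out the first dehydrogenation, each for its own range of chain lengths. Acadvl, for very long chains, read 586.7 with nicotine and 578.8 with saline in SHR, and 474.6 and 498.4 in BN in the same order. Both SHR pools lay above both BN pools. Averaged over treatments Acadvl was higher in SHR (log2 0.26, SE 0.08, 95% interval 0.09 to 0.43, limma adjusted p = 0.0279), and with strain as the only factor the adjusted p was 0.0373 on all 4 arrays and 0.0858 to 0.23 when any 1 pool was left out. Acadm, for medium chains, read 3674.9 and 3635.4 in SHR and 3704.9 and 3750.5 in BN, nicotine before saline in each strain, the order used from here on. Its highest array exceeded its lowest by a factor of 1.03, and its strain difference was -0.03 with a 95% interval from -0.16 to 0.10. Acadl, for long chains, read 943.7, 1003.6, 1109.8 and 1015.3, and Acads, for short chains, 391.5, 391.4, 415.4 and 385.4. In Acadl both SHR pools lay below both BN pools, though BN saline was close to SHR saline. The Acads pools overlapped between strains. Neither passed the threshold (adjusted p = 0.27 and 0.85 with limma).

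The carnitine shuttle was lower in both SHR pools for both members, without passing the threshold. Cpt1a, the outer membrane transferase that controls entry, read 922.1, 880.2, 986.6 and 983.4 (log2 -0.13, SE 0.07, limma adjusted p = 0.23). A second Cpt1a probe set gave 763.9, 760.4, 781.8 and 821.8, again with both SHR pools below both BN pools. Cpt2, its partner on the inner membrane, read 287.5, 296.5, 335.3 and 321.5 (log2 -0.17, SE 0.09, limma adjusted p = 0.24).

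Hadha and Hadhb, the subunits of the trifunctional protein that completes the cycle for long chains, showed little movement. Hadha read 922.1, 914.3, 916.9 and 945.4. Hadhb read 1333.1, 1333.5, 1248.3 and 1283.8. Their strain differences of -0.02 and 0.07 had 95% intervals from -0.17 to 0.13 and from -0.07 to 0.22. Hadh, the hydroxyacyl-CoA dehydrogenase of shorter chains, read 1613.0, 1495.0, 1805.5 and 1761.3, with both SHR pools below both BN pools. It was 1.15-fold higher in BN (log2 SHR minus BN -0.20, SE 0.07, limma adjusted p = 0.0389). With strain as the only factor the adjusted p of Hadh was already 0.0540 on all 4 arrays; it was 0.0432 without the SHR nicotine pool and 0.17 to 0.27 without any of the other 3. A second Hadh probe set lay below the floor on all 4 arrays (19.5 to 40.5), and the mean of the 2 gave -0.10 with an adjusted p of 0.50.

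The thiolases did not differ between strains past the threshold. Acaa2, which releases acetyl-CoA at the end of the cycle, read 1439.3, 1336.9, 1289.7 and 1341.9. Acat1, which acts on acetoacetyl-CoA, read 1602.5, 1542.3, 1534.2 and 1633.0. The strains overlapped in both genes.

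Electrons from the dehydrogenases pass through the flavoprotein of Etfa and Etfb to the dehydrogenase of Etfdh. Etfa read 1263.6, 1117.2, 1158.1 and 1181.6, and Etfdh 568.3, 522.4, 531.2 and 517.8, with the SHR nicotine pool highest in each. Etfb read 1276.0, 1271.5, 1339.2 and 1411.5, lower in both SHR pools (log2 -0.11, SE 0.07, limma adjusted p = 0.29). Of the enzymes that handle double bonds, Eci1, an enoyl-CoA isomerase, read 2414.0, 2260.8, 2430.8 and 2498.8, and Decr1, a dienoyl-CoA reductase, 1555.2, 1487.9, 1363.6 and 1518.2. The Decr1 pools overlapped. Both SHR pools of Eci1 lay below both BN pools (log2 -0.08, adjusted p = 0.45 with limma). A second Eci1 probe set stayed below the floor, at 9.4 to 29.9.

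Ehhadh, the peroxisomal bifunctional enzyme that hydrates and then dehydrogenates the acyl chain, showed the widest range of the measured members, 1.64-fold between its highest and lowest array. Its signal was 798.8 and 643.3 in the SHR nicotine and saline pools against 1054.8 and 950.0 in the BN pools. Ehhadh was 1.40-fold higher in BN on average (log2 SHR minus BN -0.48, SE 0.07, limma adjusted p = 6.53e-05), at log2 -0.56 under saline and -0.40 under nicotine. With strain as the only factor, adjusted p was 0.0154 on 4 arrays, 0.0075 without the SHR nicotine pool, 0.0536 without the SHR saline pool, 0.15 without BN nicotine and 0.0653 without BN saline, with log2 differences from -0.64 to -0.33.

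The acyl-CoA thioesterases free fatty acids from coenzyme A. Acot1, the cytosolic form, read 425.9, 467.5, 495.2 and 452.5, and the strains overlapped. Acot2, the mitochondrial form, read 175.9, 149.2, 178.3 and 205.2. SHR and BN nicotine pools were nearly equal for Acot2, and the saline pools 1.38-fold apart (log2 -0.24 on average, SE 0.13, limma adjusted p = 0.22). The pair are near-identical genes, so their probe sets may share signal.

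Pdk4, the kinase that turns off pyruvate dehydrogenase when fat is burned, read 128.8 and 169.3 in SHR nicotine and saline and 166.3 and 131.6 in BN. The SHR saline pool and the BN nicotine pool were high and the other pair low, so the strain average was 0.00 with a 95% interval from -0.32 to 0.32. Ucp2, a carrier of the inner mitochondrial membrane, read 122.7, 99.7, 132.1 and 130.5, lowest in SHR saline (log2 -0.25, SE 0.15, limma adjusted p = 0.29).

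Among the peroxins, Pex5, the receptor that carries matrix enzymes into the peroxisome, read 275.7 and 299.7 in SHR against 337.3 and 345.3 in BN. Both SHR pools lay below both BN pools (log2 -0.25, SE 0.09), and the limma adjusted p of 0.0763 missed the threshold. With the floor at the 60th percentile Pex5 was called, as were 28.8% of all genes. Pex14 and Pex13, which form the docking site for Pex5, read 126.3, 130.4, 123.6 and 130.2, and 454.7, 494.8, 499.1 and 509.0. Pex14 overlapped between strains, and for Pex13 both SHR pools lay below both BN pools (log2 -0.09, 95% interval -0.26 to 0.08).

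Pex11a, which acts in peroxisome division, was almost level at 429.4, 424.3, 431.0 and 424.5, while its second probe set gave 94.7, 78.9, 100.9 and 118.0. Pex3 and Pex19, which place proteins in the peroxisomal membrane, read 81.9, 82.7, 98.5 and 83.0, and 77.5, 100, 67.9 and 73.1. Each exceeded the limit for a measured gene on a single array, BN nicotine for Pex3 and SHR saline for Pex19. Pex2, part of the ubiquitin ligase that recycles Pex5, read 89.1, 59.3, 64.7 and 76.2.

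Taking the members together, 3 of 26 tested passed for strain (11.5%): Acadvl higher in SHR, Ehhadh and Hadh lower. Over all genes 17.6% of 5444 were called with limma, 8.28% higher and 9.33% lower in SHR. The members' share rests on 3 calls and is a description only. In the brightest of the 4 signal groups, which held 18 of the 26, 28.5% were called. Without SHR saline, BN nicotine or BN saline, 0 members were called with limma, and 2 (Ehhadh and Hadh) without SHR nicotine, with strain as the only factor; 5.48% to 9.74% of all genes were called then. The median size of the members' strain difference was 0.08 on the log2 scale, against 0.15 over all genes and 0.13 over the brightest group. By position, 13 of 26 members had both SHR pools below both BN pools, as did 28.9% of all genes, and 2 had them above, as did 30.4%. Pex3, 1 of the 13, passed the signal limit through BN alone, so the direction of its difference was set in advance. In either direction 15 of 26 were separated, and 59.3% of all genes. At 1.5-fold, 0 of 26 members were apart between strains under saline and 0 of 27 under nicotine, against 7.39% and 7.6% of all genes.

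**Figure D2:**
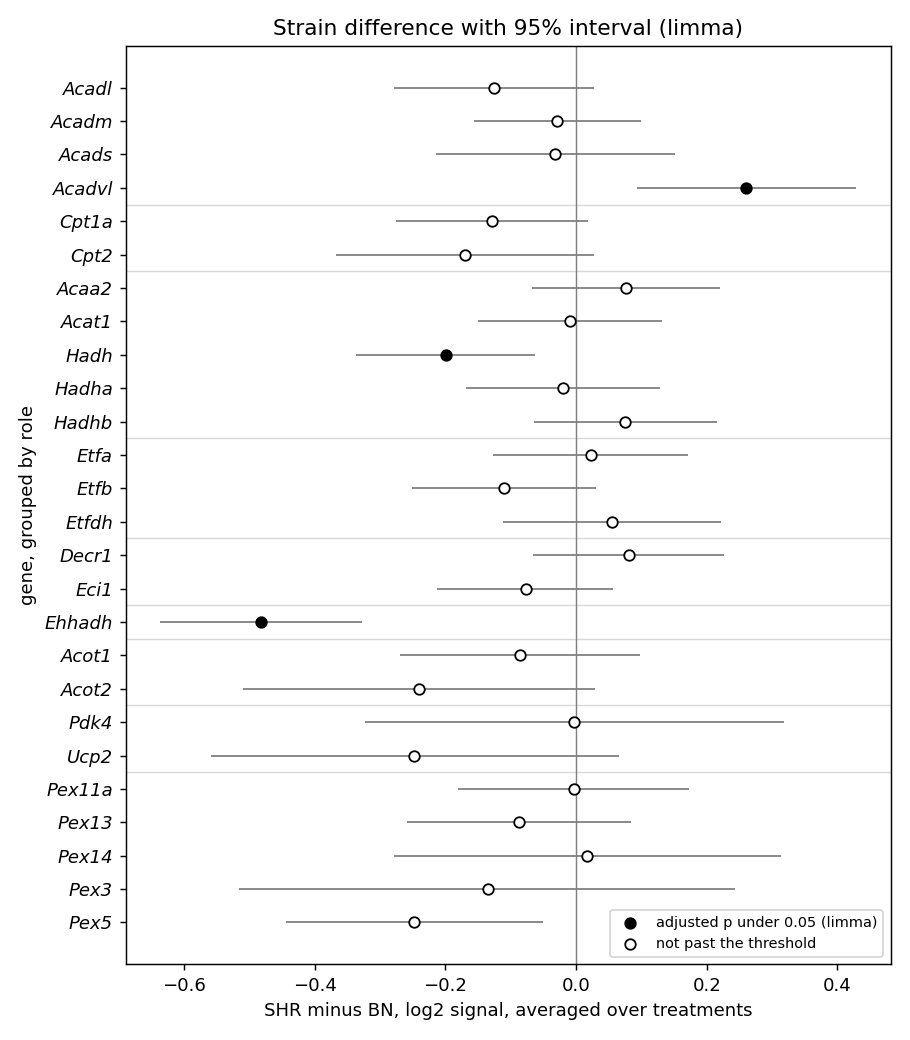
SHR minus BN difference in log2 signal (x axis) for the 26 tested members, averaged over treatments, with 95% intervals from limma; filled points have an adjusted p under 0.05. Ehhadh (-0.48), Hadh (-0.20) and Acadvl (0.26) are filled, and the other intervals except that of Pex5 cross 0.

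Some cell type markers and RNA integrity ratios also differed by strain. Of 10 proximal tubule markers 9 were measured; 5 were called higher in SHR (Slc34a1, Lrp2, Slc22a6, Slc5a2 and Miox) and 1 lower (Cubn), and their summed signal was 27191 and 27161 in SHR against 23791 and 24408 in BN. Immune cell markers summed to 3943 and 3333 against 2776 and 2524, with 3 of 3 tested called higher in SHR (4 of 6 measured, Ptprc below the floor). Laptm5, measured but not tested, read 82.3 and 71.5 in SHR against 94.9 and 75.4 in BN, and its pools overlapped between strains. Beta-actin, whose 3' and 5' probe sets report RNA integrity, had a 3'/5' ratio of 1.34 and 1.39 in SHR and 1.49 and 1.54 in BN, while GAPDH stayed between 1.0 and 1.11 in both strains. The hexokinase ratio ran the other way, with 2.27 and 2.81 for the SHR pools against 1.71 and 2.22 for BN. In the other segments markers were called in both directions. Among 5 tested markers of the thick ascending limb and distal tubule, Umod was called higher in SHR, and Slc12a1 and Slc12a3 lower. Among 4 of the collecting duct Slc4a1 was called higher, and Aqp2 and Aqp3 lower. Of 2 podocyte markers tested Podxl was called lower, and of 3 endothelial markers 1 was called higher. The part of all these in the strain differences was not tested, and in whole-kidney RNA fewer cells of a type and less RNA per cell cannot be told apart. Of defining kidney genes, Umod read 4043.8 to 5260.3 and Aqp1 3798.1 to 3949.5, while the 4 markers each of liver, adrenal cortex and skeletal muscle stayed under the limit. Of 5 adipocyte markers on the array 1, Lpl, was measured, and it was lower in SHR (341.3 and 375.7 against 580.6 and 527.6), with Plin1 below the floor on all 4 arrays.

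Mitochondrial and peroxisomal enzymes were then compared over the 4 arrays. The 16 mitochondrial enzymes among the members had 2 strain calls, Acadvl and Hadh, with differences between -0.20 and 0.26 and a median size of 0.08. Centred on each gene's mean, their median lay at 0.00, -0.03, 0.00 and 0.03. Ehhadh was the only peroxisomal enzyme of the members with its own probe set, so a wider list of 37 peroxisomal enzymes was added, of which 30 were on the array and 25 tested. In that list 12 of 25 were called (48.0%, against 17.6% of all genes and 28.5% of the brightest group), 5 higher and 7 lower in SHR, with a median size of 0.21 and a range of the highest to the lowest array of 1.25-fold in the median. Of the 12, Acox2 and Nudt19 passed the signal limit through SHR alone, where they are high. The direction of their difference, though not its size, was thus set in advance. The centred medians of the wider list were -0.015, -0.04, 0.06 and 0.06. With strain as the only factor, 5 were called without BN nicotine, 6 without BN saline, 11 without SHR nicotine and 10 without SHR saline, where 5.74%, 5.48%, 9.47% and 9.74% of all genes were. A further list of mitochondrial genes of acyl chain use had 17 tested. Of these 17, 6 were called (35.3%). The list's median size of 0.21 and median range of 1.26-fold were close to those of the peroxisomal list. It includes Slc22a5, 1 of the 6 called, whose product is a carrier of the cell membrane and not a mitochondrial enzyme. Both mitochondrial lists together, Slc22a5 included, had 8 of 33 called (24.2%) and a median size of 0.11. These counts describe the lists, and the difference between them was not tested.

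The largest peroxisomal strain differences ran in both directions. Pecr, a peroxisomal enoyl-CoA reductase, read 2373.8 and 2663.1 in SHR against 1339.7 and 1313.8 in BN, 1.90-fold higher (log2 0.92, SE 0.07, limma adjusted p = 2.51e-09). Nudt19, a peroxisomal coenzyme A hydrolase, read 118.9 and 119.1 against 72.2 and 75.6. Both SHR pools were higher for each, and Acox2, the branched-chain acyl-CoA oxidase, read 268.2 and 281.2 against 45.5 and 59.3. The BN signals of Acox2 lie close to the floor, and its log2 difference of 2.40 was 1.51 with the floor at the 60th percentile. In the other direction Hsd17b4, the D-bifunctional protein that parallels Ehhadh, read 1188.0 and 1232.3 against 1822.6 and 1834.4. It was 1.51-fold higher in BN (limma adjusted p = 9.88e-07), the same direction as Ehhadh. Amacr, the racemase for branched chains, read 961.7 and 1231.2 against 1578.7 and 1654.6, and Gstk1, a glutathione transferase of peroxisomes and mitochondria, 179.2 and 183.9 against 320.3 and 281.3. Both were lower in SHR (log2 -0.57 and -0.73). The adjusted p of Nudt19 and Amacr with strain as the only factor was 0.0127 and 0.0070 on all 4 arrays, 0.0726 and 0.0641 without the BN nicotine pool and 0.0564 and 0.0826 without BN saline.

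**Figure D3:**
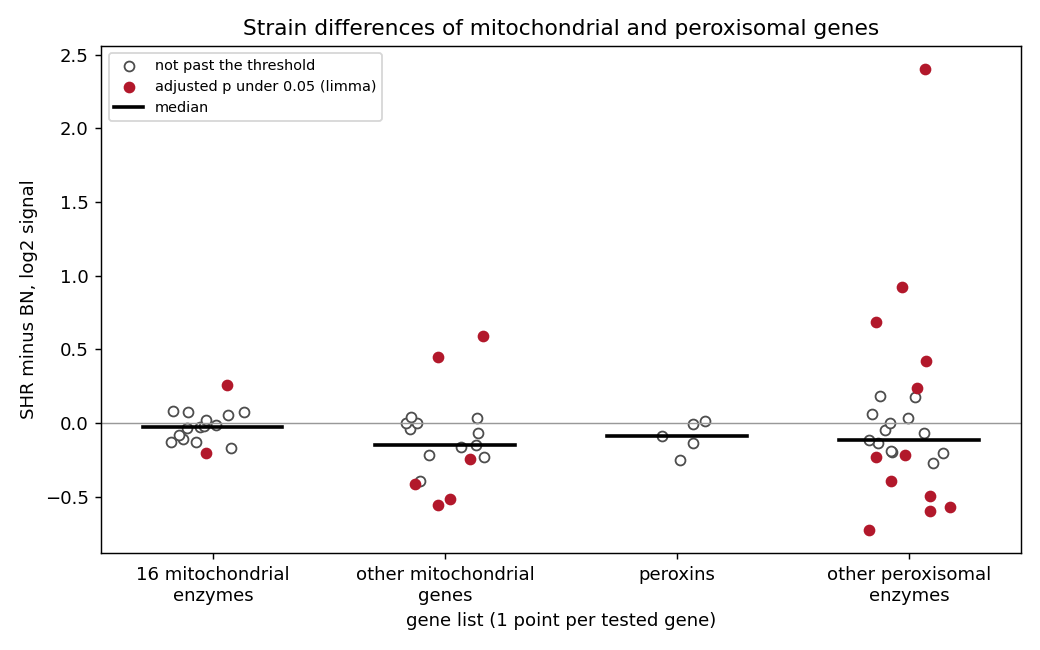
SHR minus BN difference in log2 signal (y axis) for 4 gene lists, 1 point per tested gene, filled where the limma adjusted p was under 0.05, with a bar at the list median. The 16 mitochondrial enzymes lie between -0.20 and 0.26, the other mitochondrial genes between -0.55 and 0.59, and the peroxins between -0.25 and 0.02. The 0.59 is Slc22a5, a carrier of the cell membrane kept in that list. The other peroxisomal enzymes lie between -0.73 and 2.40, the upper end being Acox2 with BN signals near the floor.

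Genes around the core pathway were counted from further lists, to be read against the 17.6% of all genes called. Each list holds few tested genes, and its share is a description only. Of 17 tested in the list of other mitochondrial genes of acyl chain use, which also holds Slc22a5, 6 were called, 2 higher and 4 lower in SHR. Slc22a5, the carnitine carrier of the cell membrane, read 978.5 and 1149.8 in SHR against 699.0 and 709.5 in BN (1.51-fold higher, limma adjusted p = 7.05e-06). Among 9 acyl-CoA synthetases and thioesterases tested, 2 were called lower, Acsl1 and Acot12. Acot12, a cytosolic acetyl-CoA hydrolase, read 97.9 and 57.7 against 134.5 and 131.1, and passed the signal limit through BN alone. With strain as the only factor its log2 difference was -0.82 on all 4 arrays (adjusted p = 0.0446), -1.20 without SHR nicotine (0.0074) and -0.44 without SHR saline (0.12), and its adjusted p was 0.20 and 0.18 without BN nicotine and BN saline.

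Of 6 regulators tested only Ppard was called. Ppard, which encodes PPAR-delta, read 182.5 and 177.8 against 148.3 and 105.3, with a log2 difference of 0.53 (limma adjusted p = 0.0108). The mean over its probe sets gave 0.26 (adjusted p = 0.27). Its adjusted p with strain as the only factor was 0.0624 on all 4 arrays and 0.0305 without BN nicotine (log2 0.78); it was 0.20 without SHR nicotine, 0.17 without SHR saline and 0.29 without BN saline (log2 0.28). Of 5 PPAR targets outside oxidation, 2 were called: Vnn1, a pantetheinase, lower in SHR (566.8 and 474.3 against 832.1 and 862.5, log2 -0.71) and Angptl4, a lipase inhibitor, higher (211.7 and 196.0 against 162.7 and 132.0, log2 0.48). For Angptl4 the adjusted p with strain as the only factor was 0.0381 on all 4 arrays and 0.0541 to 0.23 when any 1 pool was left out. Of 7 peroxisomal membrane proteins 1 was called higher, Mpv17l (log2 0.46, and 0.77 as the mean over probe sets), and the 1 tested ketone body gene was not called. The adjusted p of Mpv17l with strain as the only factor was 0.0075 on all 4 arrays, 0.0856 without BN nicotine and 0.0533 without BN saline.

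Prenatal nicotine left the members close to their saline levels. Averaged over strains, 0 of 26 members passed with limma, against 0% of all 5363 genes tested. At an unadjusted p under 0.05 there were 285 genes, and 1 member, Ehhadh. Ehhadh stood 0.23 above saline (SE 0.07, unadjusted p = 0.0066, adjusted p = 0.55 with limma), by 0.31 within SHR and by 0.15 within BN. The other members lay between -0.08 and 0.16, and 14 of 26 were above 0. The median size was 0.03, against 0.07 over all genes.

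Within SHR, 1 of 27 measured members was 1.5-fold apart, where 1.86% of all genes were. That was Pex2, higher with nicotine (89.1 against 59.3, log2 0.59), with the higher pool just above the limit for a measured gene. In BN, 0 of 26 members reached 1.5-fold, against 1.43% of all genes. Ucp2 was 1.23-fold higher with nicotine in SHR and 1.01-fold in BN, and Pdk4 was 1.31-fold lower in SHR and 1.26-fold higher in BN. Of the 16 mitochondrial enzymes, 13 were above saline in SHR and 6 in BN, with medians of 0.04 and -0.03. Over all genes 2649 of 5470 were above saline in SHR and 2765 of 5366 in BN. Within a strain all ratios come from the same pair of arrays, so the enzymes are not independent of each other. Among 25 members measured in both strains, 11 had ratios in the same direction, 44.0%, against 48.7% of all genes. With 1 pool per group these ratios have no replicate check.

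**Figure D4:**
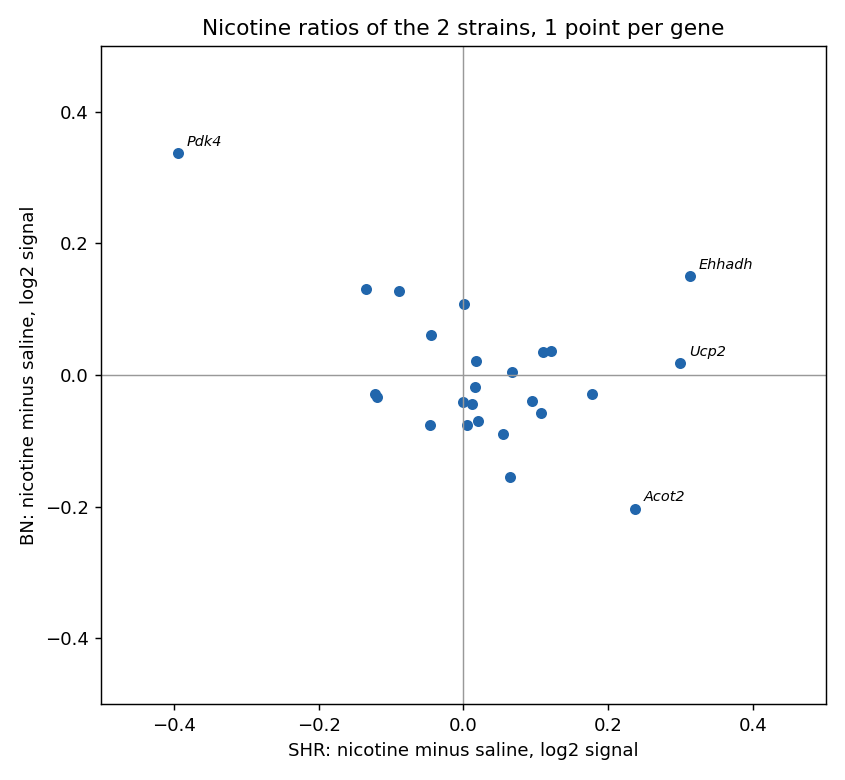
Log2 ratio of nicotine to saline in SHR (x axis) and in BN (y axis), 1 point for each of 25 members measured in both strains. Most points lie near the origin; Ehhadh is above 0 on both axes, Ucp2 mainly in SHR, and Pdk4 lies at -0.39 in SHR and 0.34 in BN.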

How the data were processed

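Kidney RNA pools were hybridised to Affymetrix RAE-230A arrays, 1 per group. The deposited values are signal intensity on a linear scale for 15923 probe sets, made with the MAS5 algorithm, as the submitters' processing notes name it (no version or setting is stated in what was used here). Every array had a 2% trimmed mean of 150.0, and this scaling was kept. The 57 control probe sets were left out. Probe sets with 1 gene symbol (12783) were named and a gene was represented by its brightest one; 312 had several symbols and 2771 none.

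Signals under 44.5 were raised to that floor before log2. An additive model of strain and treatment was fitted with limma 3.58.1 in R 4.3.3 (lmFit, eBayes with an intensity trend) over all genes whose higher group mean reached 89.0, with Benjamini-Hochberg adjustment at 0.05. It leaves 1 residual degree of freedom; the prior degrees of freedom were 19.3 in the strain fit and 13.3 in the nicotine fit. Each group has 1 pool, so the p-values measure neither the spread between animals nor that between like pools. They rest on how far the strain difference varied between treatments, combined with the same spread in other genes. That residual also holds any nicotine response that differs between strains. The number of arrays limits precision. The fit was tested on simulated data, where 15 of 67 genes changed 1.2-fold between strains were recovered, and 67 of 67 changed 1.5-fold. The simulated noise depended on signal alone, so genes of like signal shared the same spread. In the real fit the spread could differ between such genes, so recovery in the real data may be lower. No nicotine change was simulated, so the ability of the fit to find one was not tested. Members, lists and named genes were chosen with earlier results of these data known. Members were named by group and value; of the further lists, the 5 called genes with the largest strain difference in each direction were described, and others named were chosen after their values were seen. Promoter letters were searched on both strands.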

Additional observations from a re-analysis of the deposited data

Results flagged for a closer look

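Pdk4 moved in opposite directions under nicotine in the strains. Its log2 ratio of nicotine to saline was -0.39 in SHR (128.8 against 169.3) and 0.34 in BN (166.3 against 131.6). It was the only member measured in both strains whose ratios were opposite and at least 0.25 in size on each side, a limit chosen after the values were seen. With 1 pool per group the difference was not tested.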

How the results depend on the processing

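The 3 members called between strains fell to 1 with cyclic loess, with the floor at the 20th percentile, with means over probe sets, without the intensity trend and with quantile normalisation. The 1 was Ehhadh each time. The share of all genes called fell there too, from 17.6% to between 8.08% and 12.9%. Without a filter on low genes 0 members were called, as for all genes (0% called). Calls among the 16 mitochondrial enzymes were 2 as reported, 0 under each of those 6 settings and 1 with strain as the only factor, a setting added after seeing the data. The 12 calls among other peroxisomal enzymes became 7 without the intensity trend and 0 without the filter. Leaving out 1 pool at a time, with strain as the only factor, gave 0 to 2 members, 0 to 1 mitochondrial enzymes and 5 to 11 peroxisomal enzymes; 0 members were called without SHR saline, BN nicotine or BN saline. The cause of these changes was not tested. Over those fits the directions of Ehhadh, Hadh and Acadvl did not change. With the floor at the 20th percentile 1 member, Pex10, was 1.5-fold apart between strains under saline, and 2, Pex2 and Pex10, under nicotine in SHR; the latter count was 0 with the floor at the 60th percentile and with quantile normalisation. For nicotine averaged over strains, 0 members were called in every alternative run. Leaving out a pool leaves the additive fit no residual degrees of freedom. A fit with nicotine as the only factor was not run, so the nicotine result was not checked with a pool left out. No paired analysis was possible because each group holds 1 array and the labels carry no replicate number. Signals near the floor limit Pex2, Pex3 and Pex19.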

Other observations

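Further strain differences in neighbouring steps were seen after the values were known. Echs1, the mitochondrial hydratase of the cycle's second step, read 705.5 and 606.0 in SHR against 963.4 and 904.4 in BN, 1.43-fold higher in BN (limma adjusted p = 3.34e-05; 0.0686 without the BN nicotine pool, with strain as the only factor). Ivd and Gcdh, dehydrogenases of leucine and of lysine breakdown, were 1.47-fold and 1.33-fold higher in BN, at 528.6 and 483.9 against 734.2 and 750.4, and at 2104.7 and 1924.7 against 2590.6 and 2771.6. Acsl1, which activates long-chain fatty acids, read 548.1 and 529.2 against 788.1 and 736.5. Phyh, which starts the breakdown of phytanic acid, went the other way, with 1404.0 and 1141.6 in SHR against 959.4 and 933.9 in BN. With strain as the only factor the adjusted p was 0.0538 for Gcdh without BN saline, and 0.11 and 0.13 for Phyh without BN nicotine and without BN saline. In SHR, Acot12 read 97.9 with nicotine and 57.7 with saline, a 1.70-fold difference with no replicate, and 134.5 and 131.1 in BN.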
